A study of Mus musculus with 35 samples.

Results

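The genes described are 10 genes that macrophages use to recognise, bind and digest what they take up: Adgre1, Cd68, Cd14, Mrc1, Mertk, C1qa, C1qb, C1qc, Lyz2 and Msr1. They were listed by name for their known roles, with no value in the rule, although earlier results of these data were known when the list was drawn up, and they are 10 of the 49671 genes in the deposited count table. All 10 were kept by the filter on low counts. C1qa was kept only through the group in which it was highest, so no count or median that includes it is independent of that group.

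The cells were lineage-negative (lin-) haematopoietic stem and progenitor cells (HSPCs) from the bone marrow of C57Bl/6 mice of both sexes, transduced by lentivirus and grown for a week in a methylcellulose medium with myeloid and erythroid growth factors and added GM-CSF, a cytokine that favours granulocytes and macrophages. G-NHX9, which the study's text calls G-NHA9, is the leukaemia fusion protein NUP98-HOXA9 joined to the green fluorescent protein mEGFP; it carries phenylalanine-glycine (FG) repeats from the nucleoporin NUP98 and the DNA-binding homeodomain of HOXA9. The 7 groups of 5 libraries each were Empty (the vector with mCherry alone), G-NHX9, G-NHX9-8FA and G-NHX9-21FGAA (FG motifs mutated), G-NHX9-midi (only the later part of the FG region), G-NHX9-midi-21FGAA (that shorter protein without FG motifs) and G-NHX9-DDNA (DNA binding by the homeodomain mutated). Every group, Empty included, was virus-transduced, sorted for fluorescence (mCherry, and mEGFP too for the fusion constructs) and given the same medium, and the labels list no further treatment. As labelled, the mice were 8 weeks old for 32 libraries and 9, 10 and 11 weeks old for Empty replicate 4, Empty replicate 5 and G-NHX9 replicate 1; these last 3 ages run on in the order of the labels and could not be checked. Nothing in the labels says which libraries came from separate mice or cultures, so the p-values measure the spread between libraries, which may in part be technical.

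Macrophages arise from myeloid progenitors through monocytes, and as they mature they gain receptors for particles and a large lysosomal compartment. Adgre1 encodes F4/80, the adhesion receptor by which mouse macrophages are usually identified. Mrc1 (CD206) binds mannose-rich glycans, Msr1 is the class A scavenger receptor for modified lipoproteins and bacteria, and Mertk is a receptor tyrosine kinase through which dying cells are engulfed. CD14 presents bacterial lipopolysaccharide to the TLR4 receptor complex. Cd68 is a heavily glycosylated protein of late endosomes and lysosomes, and Lyz2 encodes the lysozyme that myeloid cells store and secrete. C1qa, C1qb and C1qc encode the chains of C1q, the recognition molecule that starts the classical complement pathway and is made mostly by tissue macrophages.

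Libraries held 31559914 to 75810659 counts, and the edgeR scaling factors (trimmed mean of M values, TMM) ran from 0.899 to 1.11. All levels are in CPM, TMM-scaled counts divided by the library total in units of 1e+06, and 3 counts in a library corresponded to 0.0396 to 0.0951 CPM. Markers of monocytes and macrophages were present in every group: of 20 genes of that lineage, at most 1 (Adgre4, in G-NHX9-8FA and G-NHX9-midi) stood at 3 counts or fewer in every library of a group. The 20 genes summed to 6266 to 7647 CPM in Empty and 4250 to 6407 CPM in G-NHX9. At an adjusted p under 0.05, 3 of the 20 were higher and 10 lower in G-NHX9 (median log2 fold change -0.51), beside 16.9% and 15.2% of all genes. One of them, Csf1r, the M-CSF receptor, ran from 226 to 357 CPM in Empty and 225 to 303 CPM in G-NHX9, and does not stand for the list. Markers of other lineages were present too. The summed level of the neutrophil markers was 8753 to 12880 CPM in Empty, 8911 to 14864 CPM in G-NHX9 and 15065 to 33949 CPM in G-NHX9-8FA, and that of the mast cell and basophil markers was 1382 to 3747 CPM, 780 to 1093 CPM and 651 to 1015 CPM in the same groups. Summed Kit, Cd34 and Ly6a, markers of stem cells and progenitors, ran from 194 to 277 CPM in Empty and from 485 to 609 CPM in G-NHX9. These 3 did not move as 1: at an adjusted p under 0.05, 2 were higher and 1 lower in G-NHX9, beside 16.9% and 15.2% of all genes. Eosinophil markers summed to 1311 to 1802 CPM in Empty, 278 to 978 CPM in G-NHX9, 69.2 to 275 CPM in G-NHX9-8FA and 39.9 to 117 CPM in G-NHX9-midi, and megakaryocyte markers to 802 to 1444, 389 to 926, 308 to 387 and 144 to 262 CPM in that order. Erythroid markers summed to 316 to 852 CPM in Empty and 298 to 763 CPM in G-NHX9, to 117 to 159 CPM in G-NHX9-8FA and 143 to 202 CPM in G-NHX9-midi, and to 580 to 2129, 724 to 1866 and 646 to 2010 CPM in G-NHX9-21FGAA, G-NHX9-midi-21FGAA and G-NHX9-DDNA. Dendritic cell markers summed to 1183 to 1489 CPM in Empty and to 609 to 1489 CPM over all libraries. Among them only Siglech stood at 3 counts or fewer in every library of a group, which it did in Empty, G-NHX9-21FGAA, G-NHX9-midi-21FGAA and G-NHX9-DDNA. In bulk RNA, fewer cells of a type and less RNA per cell cannot be told apart, and the part of these markers in the results below was not tested.

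Those of the 10 genes that were called in G-NHX9 moved in opposite directions. C1qb and C1qc rose and Mrc1, Mertk, Msr1, Cd68 and Lyz2 fell against Empty, while Adgre1 and Cd14 gave no call, a call being an adjusted p under 0.05 in edgeR's quasi-likelihood test over all genes. C1qa was higher too, and is given by its counts, with no test, because G-NHX9 is the group that let it through the filter. In that comparison 16.9% of all 17166 genes tested were called higher and 15.2% lower. The median log2 fold change of the 10 genes was -0.48, and -0.89 without C1qa, against 0.01 over all genes tested.

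**Figure D1:**
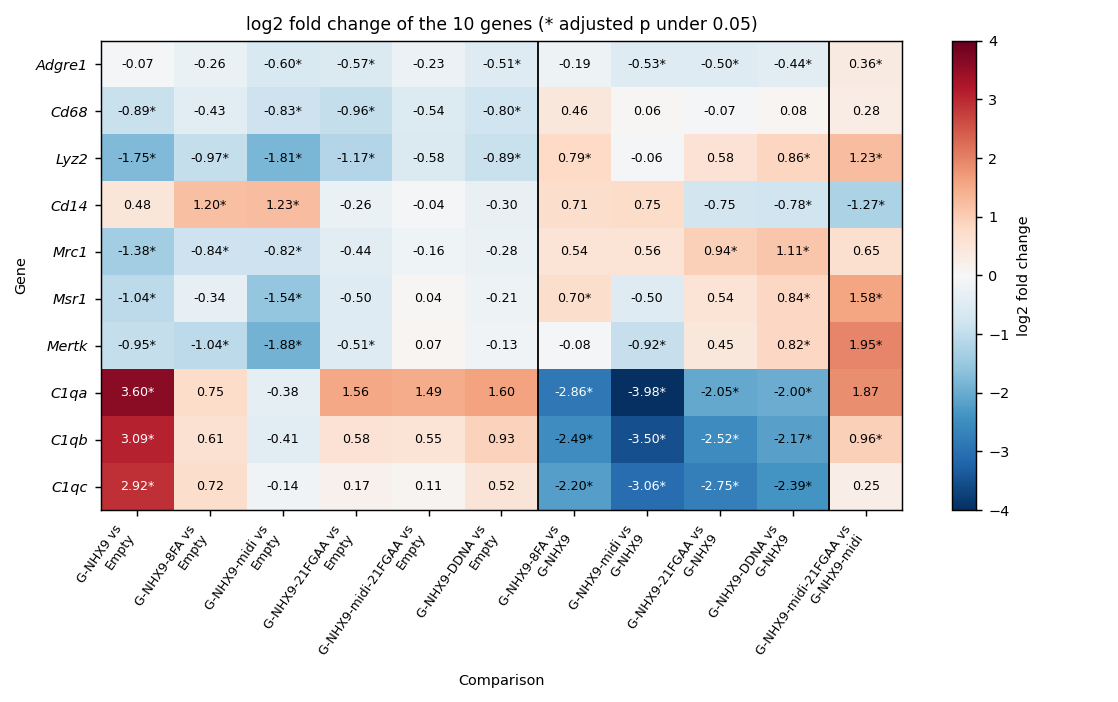
Log2 fold changes of the 10 genes (rows) in the 11 comparisons (columns), coloured by size and direction, with an asterisk where the adjusted p was under 0.05; those of C1qa against or in G-NHX9 carry no weight, since that group let it through the filter. The C1q genes were highest in G-NHX9, and 0 of the 10 genes carried an asterisk in G-NHX9-midi-21FGAA against Empty.

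The other constructs were set against the same Empty libraries, so these comparisons share their controls. G-NHX9-8FA raised 1 gene (Cd14) and lowered 3 (Mrc1, Mertk and Lyz2), where 13.4% of all genes were called higher and 13.2% lower. G-NHX9-midi raised 1 (Cd14) and lowered 6 (Adgre1, Cd68, Mrc1, Mertk, Lyz2 and Msr1), beside 20.5% and 20.0% of all genes. With G-NHX9-21FGAA, 0 rose and 4 fell by edgeR (Adgre1, Cd68, Mertk and Lyz2), beside 14.7% and 12.5%, and 0 rose also by DESeq2 and at an unadjusted p under 0.05. With G-NHX9-DDNA, 0 rose and 3 fell by edgeR (Adgre1, Cd68 and Lyz2), beside 9.85% and 7.35%, with 0 higher by DESeq2 and 1, C1qb, at an unadjusted p under 0.05. Without TMM factors C1qb was called higher there (1.06 in log2 fold change, adjusted p = 0.049). The medians of the 10 genes were -0.30, -0.71, -0.47 and -0.24 in these 4 comparisons.

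G-NHX9-midi-21FGAA, the short construct without FG motifs, gave 0 calls among the 10 genes by edgeR against Empty, where 9.59% of all genes were called higher and 7.32% lower. At an unadjusted p under 0.05 there were 2, Cd68 and Lyz2, both lower. DESeq2 gave 0, and blocking on the replicate number gave 1, Cd68 (adjusted p = 0.022). The median log2 fold change of the 10 genes was -0.00.

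Against G-NHX9 itself, whose 5 libraries are shared by the next 4 comparisons, C1qb and C1qc were lower in all 4 mutants tested. C1qa is among the genes counted as lower in each, and without it the lower genes are 2, 4, 3 and 4 in the order given. G-NHX9-8FA raised 2 of the 10 genes and lowered 3, beside 6.43% and 8.04% of all genes. G-NHX9-midi raised 0 and lowered 5 by edgeR, beside 8.50% and 11.2%, with 0 higher by DESeq2 and 2 at an unadjusted p under 0.05. G-NHX9-21FGAA raised 1 and lowered 4, beside 8.91% and 8.34%, and under the replicate block its calls went from 5 to 9, with Cd14 (adjusted p = 0.01), Mertk (0.043), Lyz2 (0.048) and Msr1 (0.0078) added. G-NHX9-DDNA raised 4 and lowered 5, beside 10.7% and 11.4%. Between the short constructs, G-NHX9-midi-21FGAA had 5 of the 10 genes higher than G-NHX9-midi and 1 lower, beside 21.0% and 22.2% of all genes.

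C1qb and C1qc were many-fold higher in G-NHX9 than in Empty and low everywhere else. C1qb stood at 0.864, 0.482, 0.647, 0.432 and 0.673 CPM in the 5 Empty libraries and at 5.53, 7.32, 5.60, 5.02 and 3.17 CPM in the 5 G-NHX9 libraries. Every G-NHX9 library was above every Empty library. The rise was 8.53-fold, or 3.09 in log2 fold change (95% interval 2.30 to 3.89, SE 0.39, adjusted p = 2e-07).

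C1qc followed the same order, with 0.480, 0.321, 0.878, 0.598 and 0.949 CPM in Empty and 5.23, 6.73, 5.42, 4.80 and 2.11 CPM in G-NHX9. The ranges did not overlap, and the rise was 7.55-fold (log2 fold change 2.92, SE 0.41, adjusted p = 1.2e-06). These were low levels: the 3 C1q genes together took 213 to 699 counts per G-NHX9 library, a summed level of 5.54 to 14.8 CPM against 0.827 to 1.62 CPM in Empty.

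C1qa was at the edge of detection outside G-NHX9. Its counts in the 5 Empty libraries were 2, 1, 3, 1 and 0, and in the 5 G-NHX9 libraries 18, 35, 10, 22 and 10. Empty was thus at or below the 3-count floor in every library and G-NHX9 above it in every library. Pooled over libraries, 95 counts stood against 7, a scaled ratio of 13.2. That ratio only describes the counts, because G-NHX9 let C1qa through the filter.

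**Figure D2:**
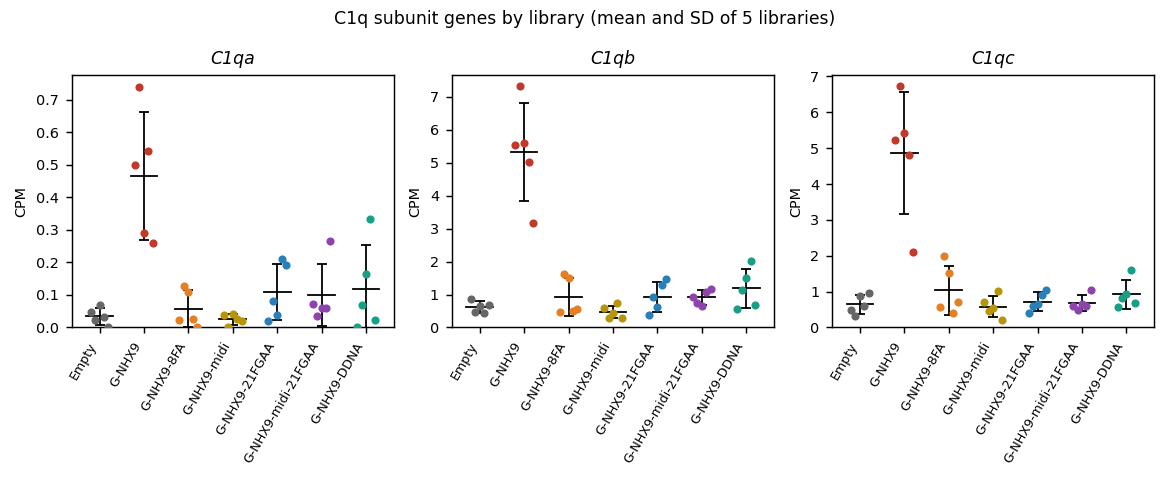
Levels of C1qa, C1qb and C1qc (y axis, CPM) in the 7 groups (x axis), with 1 point per library and the mean with its SD. In C1qb and C1qc the 5 G-NHX9 libraries lie above all libraries of the other groups, and for C1qa 1 library each of G-NHX9-midi-21FGAA and G-NHX9-DDNA reaches into the G-NHX9 range.

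In the other 5 constructs, neither C1qb nor C1qc gave a call against Empty by edgeR or by DESeq2. By edgeR, 9.59% to 20.5% of all genes were called higher and 7.32% to 20.0% lower in these comparisons. Only C1qb in G-NHX9-DDNA had an unadjusted p under 0.05. C1qa is left out here, because at so few counts its tests could hardly give a call. C1qb read 0.466, 1.63, 1.51, 0.514 and 0.550 CPM in G-NHX9-8FA, 0.383, 0.911, 0.607, 1.28 and 1.46 CPM in G-NHX9-21FGAA, and 0.578, 0.300, 0.430, 0.749 and 0.288 CPM in G-NHX9-midi. In G-NHX9-midi-21FGAA it read 0.939, 0.746, 0.646, 1.07 and 1.16 CPM, and in G-NHX9-DDNA 0.558, 1.15, 1.52, 2.02 and 0.694 CPM. All of these 25 libraries lay below the lowest G-NHX9 library, and each of the 5 groups overlapped the Empty range.

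Against G-NHX9, C1qb gave log2 fold changes of -2.49 in G-NHX9-8FA (adjusted p = 1.6e-05), -3.50 in G-NHX9-midi (7.9e-08), -2.52 in G-NHX9-21FGAA (5.3e-06) and -2.17 in G-NHX9-DDNA (3.5e-05). C1qc differed by -2.20, -3.06, -2.75 and -2.39 in the same order, each with an adjusted p of 0.00015 or less. The C1qa counts were 1, 7, 5, 1 and 0 in G-NHX9-8FA, 2, 0, 2, 1 and 1 in G-NHX9-midi, 1, 4, 2, 15 and 8 in G-NHX9-21FGAA, 0, 3, 8, 14 and 1 in G-NHX9-DDNA and 3, 2, 3, 3 and 21 in G-NHX9-midi-21FGAA. G-NHX9-midi-21FGAA was not tested against G-NHX9. Between the short constructs, C1qb was higher with G-NHX9-midi-21FGAA (0.96 in log2 fold change, adjusted p = 0.047), a call lost without any 1 of G-NHX9-midi replicates 2, 3 and 5 or G-NHX9-midi-21FGAA replicates 1, 4 and 5 (adjusted p up to 0.11), while C1qc (0.25, adjusted p = 0.66) gave no call.

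The trio lies in a row on mouse chromosome 4, all on the minus strand, within 18.68 kb (GRCm38, GENCODE M21). C1qb is at chr4:136880129-136886187, C1qc at chr4:136889804-136893065 and C1qa at chr4:136895917-136898803, with 3616 bp and 2851 bp between neighbours. Because these genes moved together in G-NHX9, the promoter sequences of C1qb and C1qc are shown as RefSeq gives them on GRCm38.p6, on the minus strand and read 5′ to 3′ from 250 bases before the start to 50 bases after it. Capitals mark the letters GAGGAA, the core bound by PU.1, the myeloid factor that many macrophage genes depend on, or the same letters on the opposite strand.
C1qb, chr4:136886151-136886450: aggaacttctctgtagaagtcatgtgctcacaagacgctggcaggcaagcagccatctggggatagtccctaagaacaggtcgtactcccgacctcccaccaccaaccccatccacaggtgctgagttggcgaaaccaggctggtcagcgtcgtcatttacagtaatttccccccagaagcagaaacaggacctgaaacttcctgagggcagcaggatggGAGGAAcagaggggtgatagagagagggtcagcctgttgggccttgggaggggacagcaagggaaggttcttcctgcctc
C1qc, chr4:136892865-136893164: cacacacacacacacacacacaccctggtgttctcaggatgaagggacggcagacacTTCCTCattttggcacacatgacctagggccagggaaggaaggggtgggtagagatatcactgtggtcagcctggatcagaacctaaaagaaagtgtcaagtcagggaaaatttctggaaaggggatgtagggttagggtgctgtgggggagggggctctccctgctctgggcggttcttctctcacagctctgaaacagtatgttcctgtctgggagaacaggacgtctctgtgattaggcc

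The match lies 30 bases before the RefSeq start in C1qb and 193 bases before it in C1qc. The RefSeq starts differ from the GENCODE starts given above. For C1qc the GENCODE start, chr4:136893065, lies inside the window, upstream of the RefSeq start and closer to the match. The GC content of the windows is 56.3% and 53.3%. Promoters of 6 of the 10 genes were in the table (Cd68, Mrc1, Mertk, C1qb, C1qc and Lyz2), and 4 of them held GAGGAA on either strand, against 28.3% of 32851 promoters of the same length. The AP-1 letters TGANTCA were in 1 of the 6 (Cd68) and 7.8% of all promoters, and the C/EBP letters TTGCNNAA in 1 (also Cd68) and 10.8%. The PBX-HOXA9 letters TGATTTAT were in 0 of the 6 windows and in 1.0% of all promoters.

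The proteases that pair with C1q did not rise with it. C1ra, the protease that C1q activates first, averaged 10.3 CPM in Empty and 4.39 CPM in G-NHX9 (log2 fold change -1.23, SE 0.20, adjusted p = 1.1e-05), and it was also called lower in G-NHX9-8FA (-1.44), G-NHX9-midi (-2.15), G-NHX9-21FGAA (-0.80) and G-NHX9-DDNA (-0.55). C1s1, its substrate in the C1 complex, was low in Empty (0.789 CPM) and fell in G-NHX9 (-1.70, adjusted p = 0.0025), G-NHX9-8FA (-1.63, 0.0037) and G-NHX9-midi (-3.07, 4.2e-06). C1rb and C1s2 were below the filter. Of 18 tested genes of a wider complement list, 1 rose (C1qbp, a mitochondrial protein that binds C1q, named after its value was seen) and 8 fell in G-NHX9, beside 16.9% and 15.2% of all genes. Among called genes there with a mean of at least 1 CPM, which leaves out C1s1, the largest changes were those of Cd55 and C1ra. Cd55, a regulator that shields cells from complement, averaged 57.2 against 136 CPM (-1.26, adjusted p = 0.0027). G-NHX9-midi also gave 1 higher and 8 lower, beside 20.5% and 20.0%. By the same cut the largest changes in that comparison were those of C1ra and Cd59a. Cd59a, an inhibitor of the membrane attack complex, averaged 1.56 against 6.70 CPM (-2.11, adjusted p = 2.8e-07). The list's median log2 fold change was -0.41 in G-NHX9 and -0.16 in G-NHX9-midi, with medians over all genes tested of 0.01 and 0.02.

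Among the receptors, Adgre1 was the steadiest. It read 683, 736, 716, 586 and 607 CPM in Empty and 693, 686, 737, 575 and 488 CPM in G-NHX9, so the groups overlapped almost throughout. The log2 fold change was -0.07 (SE 0.13, adjusted p = 0.75). It was lower in G-NHX9-midi (495, 315, 415, 558 and 418 CPM, log2 fold change -0.60, adjusted p = 0.00049), in G-NHX9-21FGAA (-0.57, 0.0017) and in G-NHX9-DDNA (-0.51, 0.0088), where the 5 libraries spanned only 458 to 489 CPM. Against G-NHX9 the same 3 constructs were called lower, at -0.53, -0.50 and -0.44, the last not without G-NHX9 replicate 3 (-0.38, adjusted p = 0.052). G-NHX9-midi-21FGAA (624, 573, 574, 554 and 509 CPM) was above G-NHX9-midi (0.36, adjusted p = 0.026), a call lost without G-NHX9-midi replicate 2, 3 or 5 or G-NHX9-midi-21FGAA replicate 1 (adjusted p up to 0.11). Between the highest and lowest group means, Empty at 666 CPM and G-NHX9-midi at 440 CPM, lay 1.51-fold, and each group overlapped its neighbours in the order of means.

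Mrc1 had its lowest group mean in G-NHX9. Its 5 Empty libraries read 1515, 1558, 1545, 1096 and 1072 CPM, and its 5 G-NHX9 libraries 716, 500, 725, 307 and 358 CPM. No G-NHX9 library reached the lowest Empty library. The mean was 2.6-fold lower (-1.38 in log2 fold change, SE 0.28, adjusted p = 2e-04). Mrc1 was also lower in G-NHX9-8FA (1163, 610, 962, 489 and 562 CPM, log2 fold change -0.84, adjusted p = 0.02) and G-NHX9-midi (1188, 543, 825, 786 and 505 CPM, -0.82, 0.016). Leaving out G-NHX9-8FA replicate 4 or 5 removed the first call (adjusted p up to 0.06) and leaving out G-NHX9-midi replicate 2 the second (0.052). Against G-NHX9, Mrc1 gave no call in G-NHX9-8FA (0.54, adjusted p = 0.19) or G-NHX9-midi (0.56, 0.15), although the replicate block called both (0.024 and 0.011). In G-NHX9-21FGAA (1311, 1311, 1249, 602 and 528 CPM) and G-NHX9-DDNA (1156, 1048, 1185, 1070 and 1148 CPM) it gave no call against Empty, and it was higher than in G-NHX9 by log2 fold changes of 0.94 (adjusted p = 0.013) and 1.11 (0.0031). The first of these was not called when those 2 groups were fitted alone (adjusted p = 0.069). G-NHX9-midi-21FGAA (1424, 1281, 1439, 1042 and 869 CPM) stood 0.65 above G-NHX9-midi with an adjusted p of 0.05, just short of a call, and was called by DESeq2 (adjusted p = 0.041), with the replicate block (0.0021) and in several other fits. The microRNA gene Mir511 lies inside Mrc1 (chr2:14229392-14332057) on the same strand, and its reads would add to those of Mrc1 where they were counted together.

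Msr1 fell with both G-NHX9 and the short construct. Its values were 348, 256, 349, 218 and 248 CPM in Empty, 217, 135, 167, 92.1 and 78.2 CPM in G-NHX9, and 125, 61.9, 91.1, 143 and 65.6 CPM in G-NHX9-midi. Both groups lay wholly below Empty, by log2 fold changes of -1.04 (SE 0.24, adjusted p = 0.00085) and -1.54 (SE 0.24, adjusted p = 3.5e-06, 2.91-fold lower). In G-NHX9-midi-21FGAA the values were within or above the Empty range, at 378, 270, 317, 241 and 252 CPM. That group was 3.0-fold above G-NHX9-midi (log2 fold change 1.58, adjusted p = 1.9e-06) and 0.04 from Empty (95% interval -0.43 to 0.51, adjusted p = 0.93). Msr1 was higher in G-NHX9-8FA than in G-NHX9 (0.70, adjusted p = 0.04), a call lost without any 1 of G-NHX9 replicates 2, 4 and 5 or G-NHX9-8FA replicates 1, 2 and 3 (adjusted p up to 0.15), and higher in G-NHX9-DDNA than in G-NHX9 (0.84, 0.0089).

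The wider list of scavenger receptors and lectins, 15 of 20 tested, was split in G-NHX9, with 4 higher and 5 lower than Empty (median log2 fold change -0.22), beside 16.9% and 15.2% of all genes. Marco, a scavenger receptor for bacteria, fell from 15.0 to 2.95 CPM (-2.34, adjusted p = 4.5e-07). Clec4e, a lectin that senses mycobacterial glycolipid and dead cells, rose from 145 to 329 CPM (1.18, adjusted p = 1.2e-06). Stab1, Clec10a and Mgl2, all receptors of macrophages or dendritic cells and named after their values were seen, rose by log2 fold changes of 1.01, 1.09 and 1.13. In G-NHX9-midi 1 rose and 9 fell (median -0.63), beside 20.5% and 20.0% of all genes. Siglec1, the sialic acid receptor of resident macrophages, fell from 42.8 to 2.81 CPM (-3.92, adjusted p = 1.2e-08), and Marco fell by 2.7 on the log2 scale. Against G-NHX9-midi, 9 of the 15 were higher and 3 lower in G-NHX9-midi-21FGAA (median 0.69), beside 21.0% and 22.2%.

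**Figure D3:**
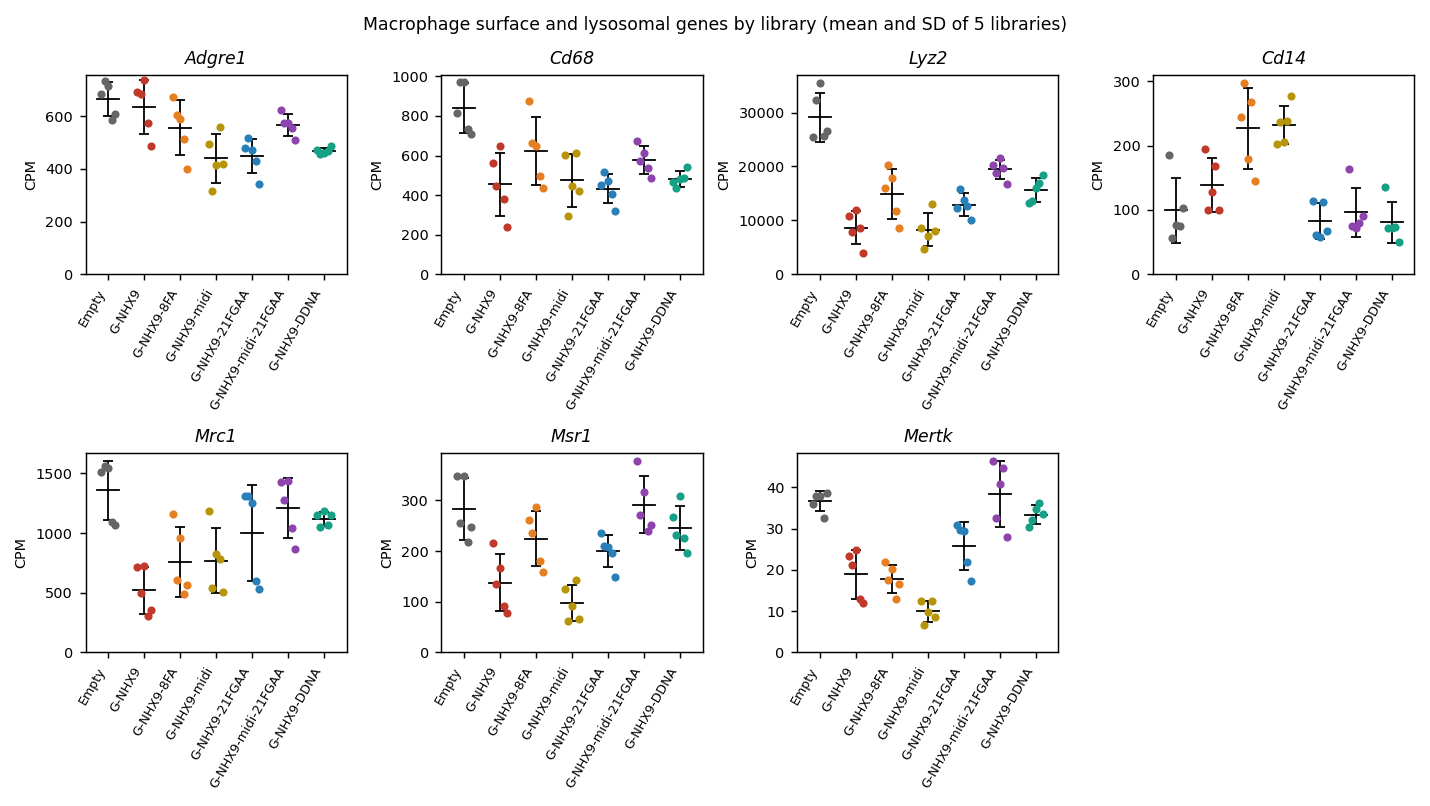
Levels of Adgre1, Mrc1, Msr1, Mertk, Cd14, Cd68 and Lyz2 (y axes, CPM, 1 panel per gene) in the 7 groups, with 1 point per library and the mean with its SD. Lyz2 in all constructs lies below the lowest Empty library of 25449 CPM, while Cd14 is highest in G-NHX9-midi and G-NHX9-8FA.

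Mertk separated the constructs more than the other receptors, with 3.86-fold between its highest and lowest group means. Empty libraries read 35.9, 38.0, 38.0, 32.7 and 38.6 CPM, G-NHX9 libraries 23.4, 21.3, 24.9, 12.9 and 12.1 CPM, and G-NHX9-8FA libraries 22.0, 17.6, 20.2, 13.0 and 16.5 CPM. Both constructs were wholly below Empty (log2 fold change -0.95, SE 0.19, adjusted p = 0.00021, and -1.04, SE 0.19, adjusted p = 1e-04). G-NHX9-midi was lower still, at 12.4, 6.66, 9.70, 12.5 and 8.55 CPM. All 5 of those libraries lay below every G-NHX9-8FA library, and 3 of the 5 below every G-NHX9 library. Mertk was 3.68-fold lower there than in Empty (-1.88, SE 0.20, adjusted p = 3.1e-09) and lower than in G-NHX9 (-0.92, adjusted p = 0.00067).

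With G-NHX9-midi-21FGAA, Mertk stood at 46.3, 32.6, 40.7, 44.7 and 27.9 CPM, with libraries above and below the Empty range. It was 3.86-fold above G-NHX9-midi (log2 fold change 1.95, SE 0.20, adjusted p = 9.5e-10), and its difference from Empty was 0.07 (adjusted p = 0.85). G-NHX9-DDNA (30.4, 32.2, 34.7, 36.3 and 33.6 CPM) gave no call against Empty (-0.13, adjusted p = 0.69) and was higher than G-NHX9 (0.82, adjusted p = 0.0016). G-NHX9-21FGAA (30.8, 29.7, 29.4, 22.0 and 17.3 CPM) was called lower than Empty (-0.51, adjusted p = 0.044), a call lost without any 1 of Empty replicates 1, 2, 3 and 5 or G-NHX9-21FGAA replicates 4 and 5 (adjusted p up to 0.18).

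Mertk works beside the receptors Axl and Tyro3, and Gas6 and Pros1 are ligands that bridge receptors of this family to dying cells. Axl was lower than Empty in all 6 constructs, by log2 fold changes of -0.74 in G-NHX9, -1.62 in G-NHX9-8FA, -2.38 in G-NHX9-midi, -1.07 in G-NHX9-21FGAA and -0.66 in both G-NHX9-midi-21FGAA and G-NHX9-DDNA, and its mean went from 323 CPM in Empty to 62.1 CPM in G-NHX9-midi. Tyro3 went the other way in G-NHX9-8FA (0.57, adjusted p = 0.0015), G-NHX9-midi (0.99, 4.3e-07) and G-NHX9-midi-21FGAA (0.42, 0.03). Pros1 fell from 47.6 to 14.4 CPM in G-NHX9 (-1.72, adjusted p = 1.4e-06), and to 8.07 CPM in G-NHX9-midi (-2.56, 8.8e-10), and it gave no call in G-NHX9-21FGAA (0.17), G-NHX9-midi-21FGAA (0.15) or G-NHX9-DDNA (0.02). Gas6 gave no call in G-NHX9 (0.59, adjusted p = 0.072) and was lower in G-NHX9-midi (-1.51, 2e-05) and G-NHX9-21FGAA (-1.01, 0.0036).

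Of the 17 tested genes for engulfing dying cells, 10 fell and 2 rose in G-NHX9 (median log2 fold change -0.45), and 10 fell and 2 rose in G-NHX9-midi (median -0.76). Over all genes 15.2% fell and 16.9% rose in G-NHX9, and 20.0% and 20.5% in G-NHX9-midi, so that only the falls exceeded the general share. Mfge8, a secreted bridge to phosphatidylserine on dying cells, fell from 448 to 154 CPM in G-NHX9 (-1.54, adjusted p = 2.5e-07) and to 85.7 CPM in G-NHX9-midi (-2.39, 4.3e-11). The 2 that rose in G-NHX9, named after their values were seen, were Gulp1, an adaptor for engulfment receptors (3.61, adjusted p = 4.4e-08), and Elmo1, which links those receptors to the cytoskeleton (0.48, 0.022). Gulp1 averaged under 1 CPM over Empty and G-NHX9. Whether the filter kept it only through G-NHX9, as with C1qa, was not tested. In G-NHX9-midi-21FGAA against Empty 3 fell and 2 rose (median -0.10), beside 7.32% and 9.59% of all genes, and against G-NHX9-midi 10 were higher and 3 lower (median 0.61), beside 21.0% and 22.2%.

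Cd14 took a different course from the other receptors. Its Empty libraries read 185, 56.9, 76.1, 74.7 and 103 CPM, its G-NHX9-8FA libraries 245, 298, 179, 268 and 145 CPM, and its G-NHX9-midi libraries 203, 236, 206, 239 and 277 CPM. All 5 G-NHX9-midi libraries and 3 of the 5 G-NHX9-8FA libraries were above the highest Empty library. Cd14 rose 2.34-fold in G-NHX9-midi (log2 fold change 1.23, SE 0.29, adjusted p = 0.00096) and 2.29-fold in G-NHX9-8FA (1.2, SE 0.29, adjusted p = 0.0023).

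In G-NHX9, Cd14 read 194, 101, 129, 169 and 100 CPM, overlapping Empty, with no call (0.48, SE 0.29, adjusted p = 0.21). That comparison rested on Empty replicate 1, the highest Empty library: without it the log2 fold change was 0.83 (adjusted p = 0.021). The remaining 3 constructs overlapped Empty and gave no call, with 113, 60.8, 57.8, 113 and 67.8 CPM in G-NHX9-21FGAA, 164, 75.2, 72.2, 79.4 and 90.1 CPM in G-NHX9-midi-21FGAA and 135, 71.8, 71.7, 73.4 and 50.8 CPM in G-NHX9-DDNA. Cd14 was 2.41-fold lower in G-NHX9-midi-21FGAA than in G-NHX9-midi, with no overlap between the groups (-1.27, SE 0.29, adjusted p = 0.00062). G-NHX9-DDNA was called lower than G-NHX9 (-0.78, adjusted p = 0.049), a call lost without any 1 of G-NHX9 replicates 1, 3 and 4 or G-NHX9-DDNA replicates 2, 3, 4 and 5 (adjusted p up to 0.16). Neutrophils also express Cd14, and their markers summed to 10078 to 21829 CPM in G-NHX9-midi and 5589 to 12546 CPM in G-NHX9-midi-21FGAA, and their part in the change was not tested.

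The receptor that CD14 serves moved less. Tlr4 gave no call in G-NHX9 (-0.18, adjusted p = 0.39), was higher in G-NHX9-midi (0.37, 0.045) and lower in G-NHX9-21FGAA (-0.46, 0.021) and G-NHX9-DDNA (-0.45, 0.038). Ly96, which encodes the TLR4 co-receptor MD-2, fell in G-NHX9 (-0.69, adjusted p = 0.0069), G-NHX9-midi (-0.81, 0.0013) and G-NHX9-21FGAA (-0.67, 0.0099). Of 14 genes of lipopolysaccharide recognition, 1 rose and 5 fell in G-NHX9 (median log2 fold change -0.18), beside 16.9% and 15.2% of all genes, and 3 rose and 5 fell in G-NHX9-midi (median -0.17), beside 20.5% and 20.0%. The 3 that rose in G-NHX9-midi are close to the share over all genes. Tlr2, the receptor for bacterial lipoproteins, fell from 334 to 167 CPM in G-NHX9 (-1.0, adjusted p = 1.7e-06), and Ticam2, a TLR4 adaptor, fell too (-1.23, 1.5e-06). Cd180, a TLR-like receptor, fell from 36.3 to 12.9 CPM in G-NHX9-midi (-1.49, adjusted p = 0.00038). The gene that rose in G-NHX9, named after its value was seen, was Ly86 (MD-1), the partner of Cd180 (3.84, adjusted p = 3.3e-05). Ly86 averaged under 1 CPM over Empty and G-NHX9, and whether the filter kept it only through G-NHX9 was not tested.

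Lyz2 was the most abundant of the 10 genes and was lower in every construct library than in any Empty library. Empty read 25449, 32327, 35477, 25650 and 26536 CPM, G-NHX9 10804, 7814, 11983, 8618 and 3981 CPM, and G-NHX9-midi 8544, 4694, 7033, 13079 and 8022 CPM. The mean fell 3.37-fold in G-NHX9 (log2 fold change -1.75, SE 0.24, adjusted p = 9.7e-07) and 3.52-fold in G-NHX9-midi (-1.81, SE 0.24, adjusted p = 3e-07). Lyz2 alone took 2.38% to 3.19% of all counts in Empty and 0.442% to 1.19% in G-NHX9.

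Lyz2 in the other constructs had means between those of Empty and G-NHX9. G-NHX9-8FA read 16036, 20220, 17845, 11707 and 8643 CPM (log2 fold change against Empty -0.97, adjusted p = 0.0024), G-NHX9-21FGAA 12264, 15858, 13751, 12613 and 10047 CPM (-1.17, 0.00047) and G-NHX9-DDNA 13150, 13652, 15994, 17003 and 18476 CPM (-0.89, 0.0093). G-NHX9-midi-21FGAA read 20307, 18870, 21473, 19763 and 16740 CPM and was not called (-0.58, SE 0.24, adjusted p = 0.085), although all 5 libraries lay below Empty. It was higher than G-NHX9-midi (1.23, adjusted p = 8e-05) with no overlap. Against G-NHX9, Lyz2 was higher in G-NHX9-DDNA (0.86, adjusted p = 0.0078) and in G-NHX9-8FA (0.79, 0.023), the latter lost without G-NHX9 replicate 5 or G-NHX9-8FA replicate 2 or 3 (adjusted p up to 0.087).

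Lyz1, the neighbouring lysozyme gene that in mice is mainly made by Paneth cells of the gut, stood far lower and followed Lyz2, at 7.73 CPM in Empty and 2.13 CPM in G-NHX9 (-1.86, adjusted p = 9.3e-07). Of the 1217 stretches of 100 bases in Lyz2 transcripts 1.97% are also in Lyz1, and of the 1267 stretches of 50 bases 15.39%, and how reads that fit both genes were counted is not known, which leaves the Lyz1 values uncertain.

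Cd68 read 816, 973, 972, 735 and 707 CPM in Empty and 563, 445, 648, 381 and 238 CPM in G-NHX9, with no overlap between the groups. It fell in G-NHX9 (log2 fold change -0.89, SE 0.20, adjusted p = 0.0011), G-NHX9-midi (-0.83, 0.0015), G-NHX9-21FGAA (-0.96, 0.00079) and G-NHX9-DDNA (-0.80, 0.007). In G-NHX9-8FA (877, 666, 650, 495 and 434 CPM) it gave no call (-0.43, adjusted p = 0.12), nor in G-NHX9-midi-21FGAA (674, 572, 615, 538 and 488 CPM, -0.54, adjusted p = 0.063). Against G-NHX9, Cd68 differed by 0.46 in G-NHX9-8FA (adjusted p = 0.13), 0.06 in G-NHX9-midi (adjusted p = 0.87), -0.07 in G-NHX9-21FGAA (0.88) and 0.08 in G-NHX9-DDNA (0.84), with no call.

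Other lysosomal genes were called in 1 direction only against Empty. Of 18 tested, 0 rose in any construct by edgeR, by DESeq2 or at an unadjusted p under 0.05, and by edgeR 14 fell in G-NHX9, 9 in G-NHX9-8FA, 16 in G-NHX9-midi, 18 in G-NHX9-21FGAA, 10 in G-NHX9-midi-21FGAA and 13 in G-NHX9-DDNA. Over all genes 15.2%, 13.2%, 20.0%, 12.5%, 7.32% and 7.35% were called lower in these comparisons. The median log2 fold changes of the 18 were -0.57, -0.45, -0.64, -0.74, -0.43 and -0.60. Ctss, a cysteine protease that trims antigens, fell from 4674 to 1732 CPM in G-NHX9 (-1.43, adjusted p = 2.4e-06) and Lipa, the lysosomal acid lipase, from 800 to 326 CPM (-1.29, 1.8e-05). Lgmn, an asparagine-specific protease, fell from 376 to 124 CPM in G-NHX9-midi (-1.60, adjusted p = 1.6e-08).

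**Figure D4:**
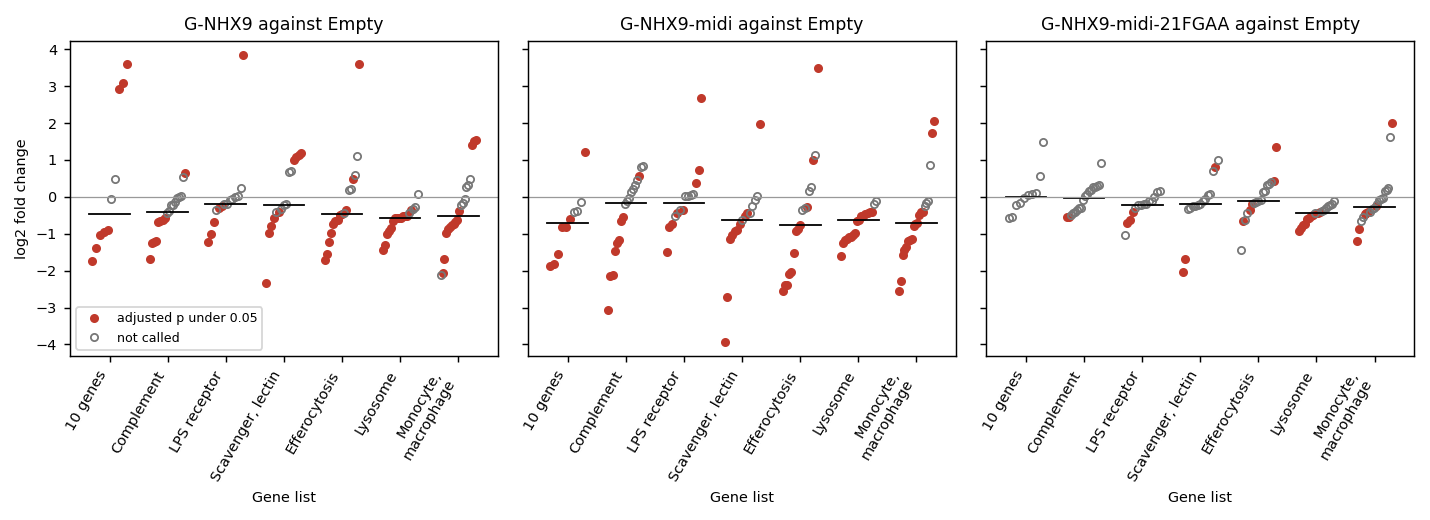
Log2 fold changes (y axis) against Empty in G-NHX9, G-NHX9-midi and G-NHX9-midi-21FGAA (1 panel each) for the 10 genes and the 6 pathway lists (x axis), with 1 point per gene, red where the adjusted p was under 0.05 and a black line at each median. The lysosome median is below zero in all 3 panels, at -0.57, -0.64 and -0.43.

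Other genes of monocytes and macrophages fell more often than they rose. Of 20 tested, 3 rose and 10 fell in G-NHX9 (median log2 fold change -0.51), where 16.9% and 15.2% of all genes did, and 2 rose and 14 fell in G-NHX9-midi (-0.72), beside 20.5% and 20.0%. The number that rose was no larger a share than over all genes. The numbers that rose and fell were 2 and 7 in G-NHX9-8FA (13.4% and 13.2% of all genes), 1 and 12 in G-NHX9-21FGAA (14.7% and 12.5%), 1 and 6 in G-NHX9-midi-21FGAA (9.59% and 7.32%) and 2 and 6 in G-NHX9-DDNA (9.85% and 7.35%). Nr1h3, the oxysterol receptor LXR alpha, fell from 23.0 to 5.53 CPM in G-NHX9 (-2.06, adjusted p = 2.6e-07), and Klf4, a factor of monocyte maturation, from 125 to 38.9 CPM (-1.69, 3.4e-05). The 3 that rose in G-NHX9 were Ccr2 (1.41, adjusted p = 1.3e-05), Cx3cr1 (1.50, 0.0025) and Ly6c2 (1.53, 4.4e-09), the first and second named after their values were seen. In G-NHX9-midi, Ly6c2 rose from 302 to 1265 CPM (2.07, adjusted p = 5.8e-12).

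Adjusted for annotated transcript length, the 10 genes spanned a wide range of levels in Empty. Lyz2 came first at 22103 ± 3459 CPM per kb (SD, n = 5), followed by Cd68 at 669 ± 101, Mrc1 at 213 ± 39.3, Adgre1 at 206 ± 20.5, Cd14 at 57.2 ± 29.3, Msr1 at 44.7 ± 9.59 and Mertk at 8.45 ± 0.565 CPM per kb. C1qb (0.569 ± 0.158), C1qc (0.334 ± 0.137) and C1qa (0.0334 ± 0.0251 CPM per kb) closed the order. Mrc1 and Adgre1 did not differ beyond their spread. In G-NHX9 the C1q genes were still the lowest, at 4.90, 2.51 and 0.449 CPM per kb for C1qb, C1qc and C1qa.

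Across the 35 libraries the 3 genes most like each of the 10 were ranked by Pearson's r of log2 CPM, which describes groups and libraries together. C1qb was closest to C1qc (r = 0.941) and Lhfp (0.915), C1qc to C1qb and Lhfp (0.882), and C1qa to C1qb (0.914) and Lhfp (0.838). The r values of C1qa carry no weight, because G-NHX9 let it through the filter. Its Empty and G-NHX9-midi libraries held 3 counts or fewer. Lyz2 was closest to the catalase gene Cat (0.957), the cathepsin gene Ctsh (0.956) and Lyz1 (0.955), and Cd68 to Akr1a1, Naglu (both 0.964) and Lipa (0.955), of which Naglu and Lipa encode lysosomal enzymes. For Mertk the closest were Gprc5b (0.962), Nlrp1b (0.961) and Meis3 (0.958), for Msr1 Ctsh (0.912), Atp6v0d2 (0.905) and Rragd (0.904), and for Mrc1 Nln (0.926), Clec4a3 (0.921) and Atp6v0d2 (0.917). Adgre1 was closest to Gdpd1 (0.892), Milr1 (0.890) and Eepd1 (0.887). Cd14 stood apart, with Dusp6 (0.907), Slc7a11 (0.905) and Ccrl2 (0.901) as its nearest genes, and its r with Mertk was -0.66 and with Lyz2 -0.38, while Msr1 had r = 0.88 with Mertk and 0.86 with Lyz2.

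Libraries with the same replicate number deviated together in several of the 10 genes. Msr1 in replicate 1 was above its group mean in 7 of 7 groups (mean deviation 0.36 on the log2 scale) and in replicate 5 below it in 7 of 7 (-0.39). Mrc1 in replicates 1 and 3 was above the mean in 7 of 7 groups (0.42 and 0.31). Cd14 in replicate 1 was above it in 6 of 7 (0.53) and in replicate 3 below it in 7 of 7 (-0.24). C1qc in replicate 3 was above its group mean in 6 of 7 groups (0.23), while C1qb was above or below it in at most 4 of 7 in any replicate and C1qa in at most 5 of 7. What the number stands for is not given in the labels.

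**Figure D5:**
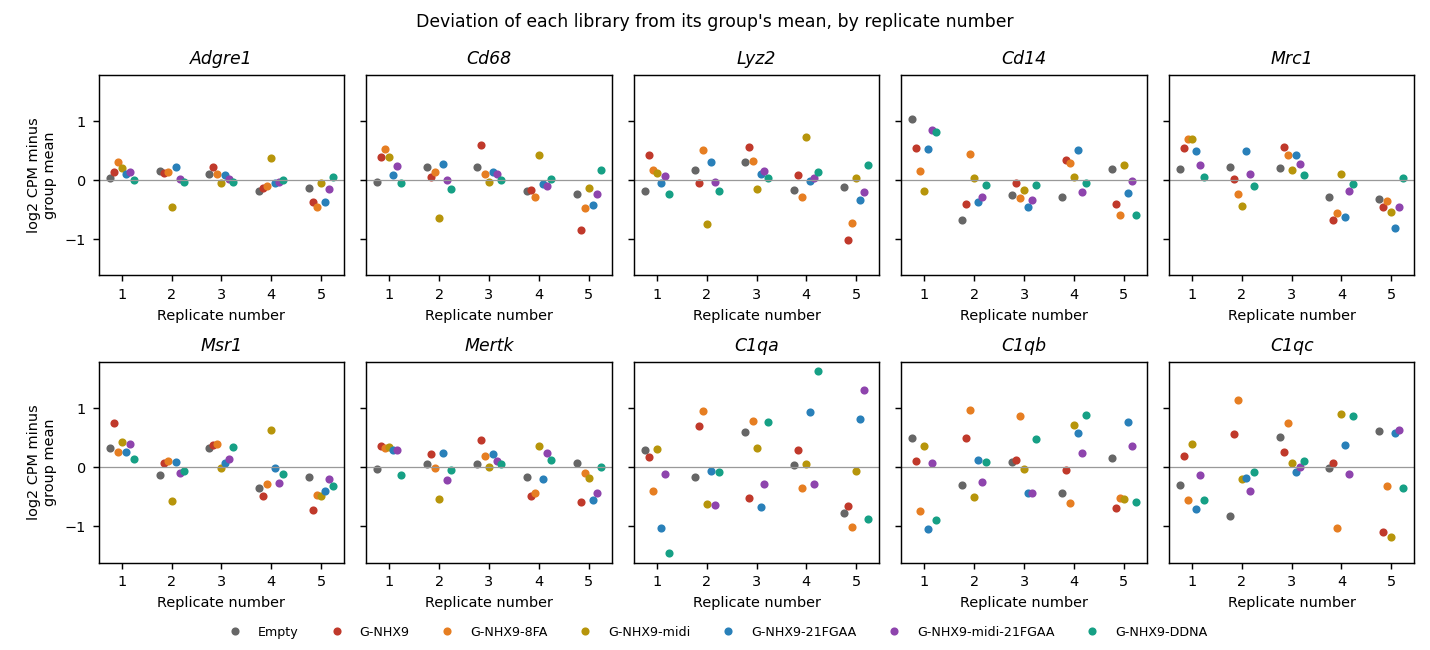
Deviation of each library from its group mean (y axis, log2 CPM) by replicate number (x axis) for the 10 genes, with 1 point per group. Replicate 1 lies above and replicate 5 below the mean in all 7 groups for Msr1.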

How the data were processed

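RNA-seq was measured in 35 libraries of 7 groups. The authors deposited raw counts per gene, made, per the submitters' processing notes, with STAR 2.7.0d and HTSeq 0.11.2 on mm10, with DESeq2 also named; the annotation and strand setting are not given in the sources used here. Libraries were made from total RNA with a stranded kit. Replicates were not pooled, and totals ran from 31559914 to 75810659 counts, so genes near 3 counts are imprecise.

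Groups were taken from the genotype labels. Genes were filtered with filterByExpr (17166 of 49671 kept, holding 99.96% of counts), scaled by TMM and fitted over all 35 libraries with edgeR's quasi-likelihood test (edgeR 4.0.16, R 4.3.3), p-values being adjusted by Benjamini-Hochberg over all genes tested, with a threshold of 0.05. The 11 comparisons were 6 constructs against Empty, 4 mutants against G-NHX9 and G-NHX9-midi-21FGAA against G-NHX9-midi. Both edgeR and DESeq2 were run on simulated counts of 5 against 5 libraries, built on Empty, which is not the fit of 7 groups. There edgeR recovered 74% of 2-fold and 100% of 4-fold changes and called 5 unchanged genes. DESeq2 recovered 83% and 100% and called 31. Alternatives were DESeq2 1.42.0, RLE scaling, no scaling factors, no filter, a mean of at least 1 CPM, an absolute log2 fold change of at least 1, only the 2 groups compared, a replicate block, and leaving out each library. No pair of libraries of a group agreed within sampling noise (lowest chi-square per degree of freedom 22.5 over 70 pairs).

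Same-numbered libraries paired (r of deviations over 0.1 in all 5 pairs, from the data, not the labels) in 5 comparisons: G-NHX9 (r 0.242 to 0.491), G-NHX9-midi-21FGAA (0.124 to 0.332) and G-NHX9-DDNA (0.247 to 0.458) against Empty, and G-NHX9-21FGAA (0.189 to 0.568) and G-NHX9-DDNA (0.136 to 0.505) against G-NHX9.

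The 10 genes and all lists were chosen with earlier results of these data known. Named besides the 10 were their direct partners and Lyz1, the 2 called genes of largest change per list in G-NHX9 and G-NHX9-midi against Empty with a mean of at least 1 CPM, and the 3 genes of highest Pearson's r per gene (log2 CPM, prior count 2, mean of at least 1 CPM). The lists leave out the 10 genes. Coordinates, transcript lengths and shared stretches are from GENCODE M21 (GRCm38), whose identifiers matched 99.3% of the table, and promoters from RefSeq (GRCm38.p6), which held 6 of the 10 genes.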

Additional observations from a re-analysis of the deposited data

Results flagged for a closer look

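In 3 of the 70 sets of 5 libraries (10 genes in 7 groups) 1 library stood far from the others, with a gap to its nearest neighbour above 0.71 of the whole range (Dixon's 95% critical value for 5 samples); chance gives about 1 in 20 such sets. Cd14 in G-NHX9-midi-21FGAA replicate 1 was 164 CPM, with the next library at 90.1 CPM. Cd14 in G-NHX9-DDNA replicate 1 was 135.0 CPM, with the next at 73.4 CPM. C1qa in G-NHX9-midi-21FGAA replicate 5 was 0.268 CPM, with the next at 0.0722 CPM, and rested on 21 counts. The first and second are both replicate 1, the number in which Cd14 was above its group mean in 6 of 7 groups.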

How the results depend on the processing

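Of the called log2 fold changes, 0 changed sign under any of the 9 kinds of alternative, 929 values kept their call and 74 lost it. With a minimum absolute log2 fold change of 1, the number of the 10 genes called against Empty went from 8 to 6 in G-NHX9, where Cd68 and Mertk were lost. It went to 2 in G-NHX9-8FA, 4 in G-NHX9-midi, 1 in G-NHX9-21FGAA and 0 in G-NHX9-DDNA against Empty, and to 3, 3, 3 and 4 in G-NHX9-8FA, G-NHX9-midi, G-NHX9-21FGAA and G-NHX9-DDNA against G-NHX9. The count in G-NHX9 and those against G-NHX9 include C1qa. In G-NHX9-midi-21FGAA against G-NHX9-midi the number went from 6 to 4. In G-NHX9-midi-21FGAA against Empty (0 called) a mean of at least 1 CPM gave 1 and a fit of the 2 groups alone gave 2, and the latter gave 3 in G-NHX9-8FA against G-NHX9, where leaving out 1 library gave 3 to 6. The replicate block gave 1 in G-NHX9-midi-21FGAA against Empty, and 8, 8 and 9 in G-NHX9-8FA, G-NHX9-midi and G-NHX9-21FGAA against G-NHX9; same-numbered libraries did not all pair in the first and second of these last 3. Nor did they in G-NHX9-21FGAA and G-NHX9-8FA against Empty, where the block gave 6 in place of 4 (with Mrc1, adjusted p = 0.026, and Msr1, 0.018) and 5 in place of 4 (with Cd68, 0.044). The cause of these changes was not tested.

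Values near zero and without a call changed sign. Without scaling factors the median of all genes was 0.19 in G-NHX9, 0.12 in G-NHX9-midi-21FGAA and 0.12 in G-NHX9-DDNA against Empty. With TMM those medians were 0.01, -0.02 and -0.01. In the fit without factors, Adgre1 in G-NHX9 became 0.11, Cd14 in G-NHX9-midi-21FGAA 0.0798 and Mertk in G-NHX9-DDNA 0.0013. Leaving out 1 library gave, against Empty, C1qa -0.65 to 0.0095 and C1qc -0.42 to 0.0821 in G-NHX9-midi, Cd14 -0.40 to 0.11 in G-NHX9-21FGAA, -0.31 to 0.32 in G-NHX9-midi-21FGAA and -0.57 to 0.06 in G-NHX9-DDNA, and C1qc -0.0942 to 0.29 and Msr1 -0.06 to 0.14 in G-NHX9-midi-21FGAA. Against G-NHX9 it gave Mertk -0.22 to 0.0364 in G-NHX9-8FA, Lyz2 -0.28 to 0.0852 in G-NHX9-midi, and Cd68 -0.10 to 0.22 in G-NHX9-midi, -0.21 to 0.0916 in G-NHX9-21FGAA and -0.0607 to 0.25 in G-NHX9-DDNA. Depth limits C1qa, whose Empty and G-NHX9-midi libraries held 3 counts or fewer.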
